A study of Mus musculus with 20 samples.

Results

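The 9 genes described here mark lymphocytes. Cd3d, Cd3e, Cd4, Cd8a and Foxp3 are T cell genes, Nkg7 is a gene of natural killer (NK) and cytotoxic T cells, and Ms4a1, Cd79a and Cd79b are B cell genes. They were chosen by name and are 9 of 56805 genes in the count tables. All 9 had enough reads to be tested, as had 21306 genes in all. The data are RNA sequencing of white adipose tissue from 20 mice, 1 library each, which had been assigned at random to 4 groups of 5. The groups were high-fat diet with Tibetan tea as a water extract (high-fat tea), high-fat diet with water (high-fat water), chow with the tea extract (chow tea) and chow with water (chow water). All mice were fed for 10 weeks. Which fat depot was taken, and the strain, sex and age of the animals, are not stated in the labels.

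T cells read antigen through a receptor whose signal passes through the CD3 chains, among them Cd3d and Cd3e. CD4 and CD8 are the co-receptors for class II and class I antigen presentation, and Foxp3 is the transcription factor that defines regulatory T cells. B cells signal through Cd79a and Cd79b, the paired chains that carry surface immunoglobulin, and Ms4a1 is the surface protein CD20. Adipose tissue holds resident lymphocytes, including regulatory T cells, and some fat depots also enclose lymph nodes or lymphoid clusters, so that lymphocyte transcripts in a tissue sample can come from either.

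Promoter windows are shown for a pair of neighbouring T cell genes, Cd3d and Cd3e, which varied together over the libraries although Cd3e alone passed the test for diet, and for Cd79a, which varied with the other B cell genes. Each runs from 250 bases before to 50 bases after the gene's start, from RefSeq on GRCm38.p6, and 6 of the 9 genes have such windows. The Cd3d window lies at chr9:44981536-44981835 on the plus strand, the Cd3e window at chr9:45009562-45009861 on the minus strand and the Cd79a window at chr7:24897247-24897546 on the plus strand. Capitals mark matches, on either strand, to the letters of the Ets motif (AGGAAG) or the E-box (CANNTG).
Cd3d: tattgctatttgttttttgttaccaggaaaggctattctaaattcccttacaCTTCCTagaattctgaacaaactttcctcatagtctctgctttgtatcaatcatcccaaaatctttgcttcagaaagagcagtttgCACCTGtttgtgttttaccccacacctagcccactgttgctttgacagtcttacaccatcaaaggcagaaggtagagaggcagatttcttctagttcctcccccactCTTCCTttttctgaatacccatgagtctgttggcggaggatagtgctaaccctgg
Cd3e: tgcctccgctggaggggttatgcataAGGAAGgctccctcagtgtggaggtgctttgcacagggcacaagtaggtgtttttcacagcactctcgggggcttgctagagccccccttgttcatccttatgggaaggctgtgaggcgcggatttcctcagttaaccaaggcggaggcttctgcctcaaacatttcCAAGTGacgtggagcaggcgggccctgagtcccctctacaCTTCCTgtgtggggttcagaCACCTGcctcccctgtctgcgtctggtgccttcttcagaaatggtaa
Cd79a: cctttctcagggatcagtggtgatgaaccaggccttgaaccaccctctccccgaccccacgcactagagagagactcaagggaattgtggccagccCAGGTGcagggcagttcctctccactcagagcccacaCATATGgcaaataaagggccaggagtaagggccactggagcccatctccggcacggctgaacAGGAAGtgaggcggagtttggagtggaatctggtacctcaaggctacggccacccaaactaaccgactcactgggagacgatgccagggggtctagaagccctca
The Ets letters stood at 2 places in the Cd3d window, with first bases at -198 and -5 from the start, at 2 places in the Cd3e window, at -224 and -17, and at 1 place in the Cd79a window, at -55. Of 32851 windows of 300 bases, 35.4% held the Ets letters and 72.3% held an E-box, so such matches are common. The Runx letters TGTGGT, held by 16.8% of windows, were in none of the 3 shown and stood in the Nkg7 window at -83. The octamer ATGCAAAT (1.74% of windows) and the letters CCCNNGGG of Ebf half-sites (13.7%) were in none of the members' 7 windows, which include a pair for Foxp3. A match describes letters and not a bound site. In the motifs, overlaps with one another were not removed.

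The libraries held 53047057 to 93314761 reads in genes, with 23800 to 27826 genes read at least once in each. Adipocyte genes summed to 9072 to 55110 CPM (read counts scaled to a common library size, here with TMM factors) over the 20 libraries. Some libraries held transcripts of other organs: pancreas genes summed to 513300 CPM in chow water replicate 1 and to at most 64.2 CPM in any other library. Intestine genes summed to 5608 CPM in chow water replicate 1 and to at most 675.6 CPM in any other library. Plasma cell genes, which include genes of secreted antibody chains, summed to 4009 CPM in the same library and to 11.5 to 346.5 CPM in the others. Results that rest on such libraries are given with and without them, and the alternatives leave out 3 libraries with organ transcripts (high-fat tea 4, high-fat water 4 and chow water 1) or 9 with organ or muscle transcripts.

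The markers were low and were found in every library. Per kilobase of exon, the median over 20 libraries was 1.63 CPM for Cd79b, 1.59 CPM for Cd79a, 1.34 CPM for Nkg7, 0.563 CPM for Cd4, 0.397 CPM for Cd3d, 0.386 CPM for Cd3e, 0.185 CPM for Ms4a1, 0.172 CPM for Cd8a and 0.058 CPM for Foxp3. Most neighbours in that order were not set apart by more than their spread. Cd79b stood above Cd79a in 11 of 20 libraries (median log2 difference 0.03, SD 0.38), and Ms4a1 stood above Cd8a in 12 of 20 (0.24, SD 1.51). Nkg7 stood above Cd4 in 19 of 20 libraries (1.16, SD 1.04) and Cd8a above Foxp3 in 20 of 20 (1.78, SD 1.14). Not per length, 58.7% of tested genes had a higher mean CPM than Cd4, and 86.6% had a higher mean than Foxp3, whose reads per library ran from 4 to 50. In bulk tissue, fewer cells of a type and less RNA per cell cannot be told apart.

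**Figure D1:**
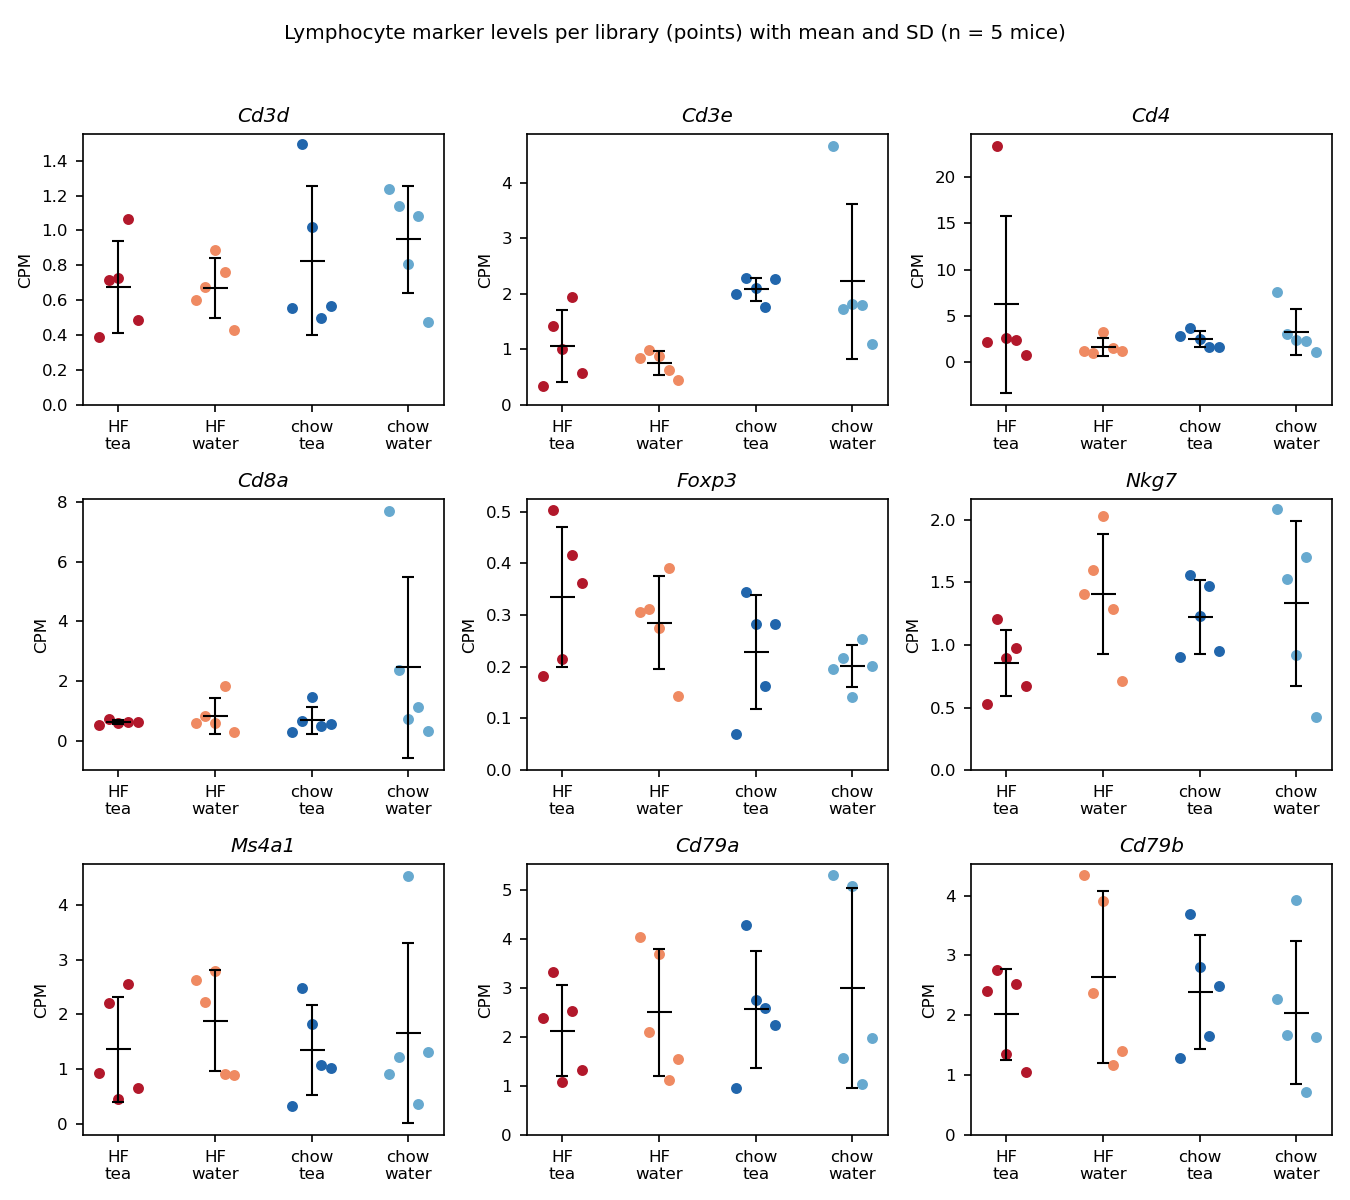
CPM of the 9 lymphocyte markers on the vertical axes, with 1 point per library and the mean ± SD of each group of 5 mice; HF is high-fat. Single libraries stand far from their groups, such as high-fat tea replicate 2 for Cd4 at 23.4 CPM and chow water replicate 1 for Cd8a at 7.69 CPM.

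Between high-fat water and chow water mice, the diet differed and neither group had tea. Cd3e fell in high-fat water mice, and the other 8 markers did not pass the test. Thus 1 of 9 markers was called, where 15.2% of all tested genes were called in either direction, 8.06% higher and 7.11% lower. The median log2 change was -0.26 over the 9 markers and -0.002 over all genes tested.

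Cd3e, the epsilon chain of CD3 (chromosome 9, 44910038 to 44920925, minus strand, GRCm39), had 0.845, 0.987, 0.888, 0.63 and 0.451 CPM in high-fat water replicates 1 to 5. In chow water replicates 1 to 5 it had 4.66, 1.73, 1.82, 1.79 and 1.10 CPM. The groups did not overlap, and chow water replicate 1 was the highest of all. The means were 0.76 ± 0.217 CPM in high-fat water and 2.22 ± 1.39 CPM in chow water (SD, n = 5 each), a log2 change of -1.54 (SE 0.42, adjusted p = 0.0213 from the quasi-likelihood test of edgeR, Benjamini-Hochberg over all genes tested, as for each adjusted p of a change below unless another tool is named). As CPM of all reads, without TMM scaling, chow water replicate 1 had 2.70 CPM, and the highest high-fat water library had 1.06 CPM against 1.08 CPM in the lowest chow water library. Groups that did not overlap were found for 1 of 9 markers and for 12.9% of all genes tested. The call ended without chow water replicate 1, the library with pancreas transcripts (log2 -1.13, adjusted p = 0.0542), and without high-fat water replicate 5 (log2 -1.40, adjusted p = 0.0521).

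The other T cell markers were spread more widely. Cd3d, the delta chain of CD3 (chromosome 9, 44893084 to 44898637, plus strand), had 0.6, 0.675, 0.888, 0.764 and 0.427 CPM in high-fat water and 1.24, 1.14, 0.807, 1.08 and 0.477 CPM in chow water. The groups overlapped (log2 -0.50, SE 0.36, adjusted p = 0.366). Cd8a, the alpha chain of the CD8 co-receptor (chromosome 6, 71350411 to 71356157, plus strand), had 0.612, 0.825, 0.581, 1.83 and 0.285 CPM in high-fat water, and 7.69, 2.38, 0.743, 1.14 and 0.326 CPM in chow water. Its log2 change of -1.56 (SE 0.67, adjusted p = 0.124) was -0.51 without chow water replicate 1. Cd4, the CD4 co-receptor (chromosome 6, 124841655 to 124865184, minus strand), had 0.95 to 3.27 CPM in high-fat water, median 1.21, and 1.07 to 7.53 CPM in chow water, median 2.36 (log2 -0.99, SE 0.73, adjusted p = 0.375). The highest Cd4 in chow water was again replicate 1, and the change was -0.46 without it and -1.41 without high-fat water replicate 3. Foxp3 (chromosome X, 7439883 to 7461484, plus strand) averaged 0.285 ± 0.091 CPM in high-fat water and 0.202 ± 0.041 CPM in chow water (SD, n = 5 each). Its change did not pass the test (log2 0.50, SE 0.39, adjusted p = 0.41), and 31.5% of its exonic bases overlap other genes, 3 of 4 on the opposite strand, whose reads cannot be told apart from its own.

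Nkg7, a protein of cytotoxic granules (chromosome 7, 43086497 to 43087673, plus strand), averaged 1.41 ± 0.48 CPM in high-fat water and 1.33 ± 0.66 CPM in chow water (log2 0.08, SE 0.36, adjusted p = 0.902). The B cell markers had overlapping groups too. Cd79a (chromosome 7, 24596806 to 24601622, plus strand) had 4.04, 2.10, 3.69, 1.13 and 1.54 CPM in high-fat water and 5.31, 1.57, 5.09, 1.04 and 1.98 CPM in chow water (log2 -0.26, SE 0.50, adjusted p = 0.759). In each group a pair of libraries stood high, replicates 1 and 3. Cd79b (chromosome 11, 106202167 to 106205588, minus strand) had 4.35, 2.37, 3.92, 1.16 and 1.40 CPM in high-fat water and 2.28, 1.67, 3.92, 0.712 and 1.63 CPM in chow water (log2 0.37, SE 0.45, adjusted p = 0.615). Ms4a1 (chromosome 19, 11227039 to 11243605, minus strand) had 2.62, 2.22, 2.79, 0.916 and 0.89 CPM in high-fat water and 0.912, 1.21, 4.52, 0.356 and 1.30 CPM in chow water (log2 0.18, SE 0.64, adjusted p = 0.878). Its change was 0.99 without chow water replicate 3, its highest library.

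**Figure D2:**
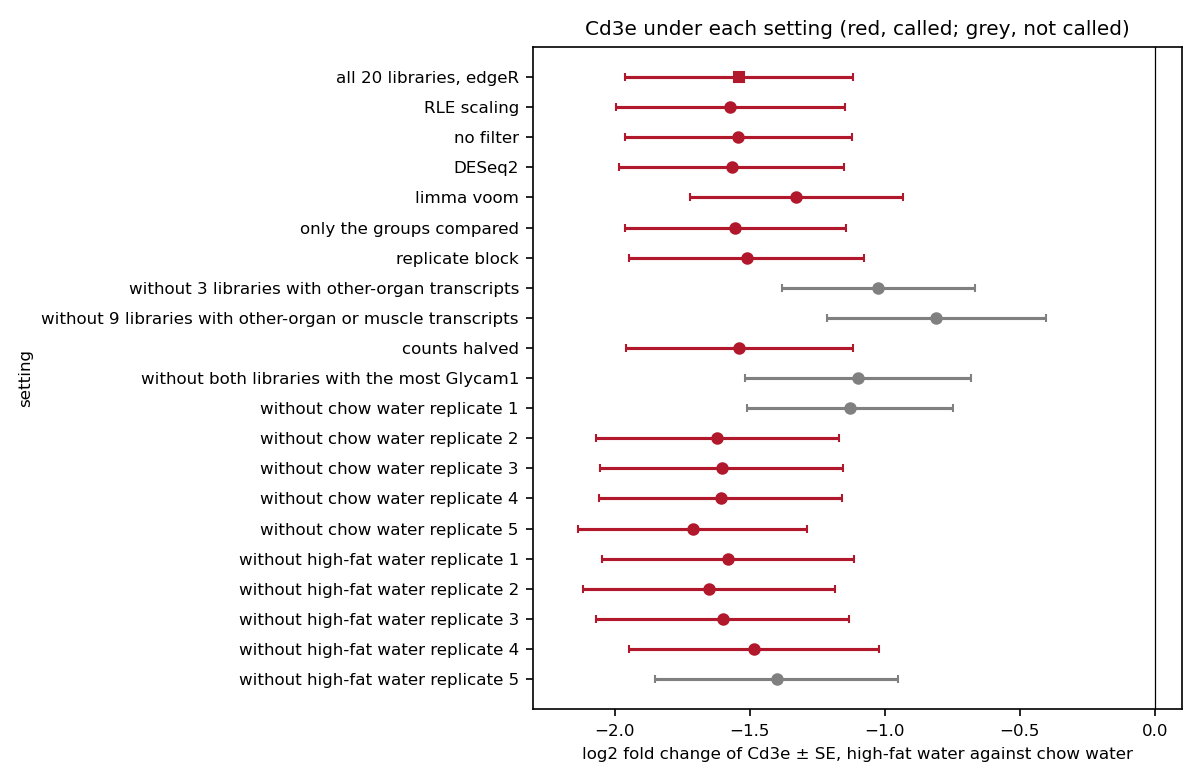
Log2 change of Cd3e with its SE on the horizontal axis, high-fat water against chow water, under each setting. The change stayed below 0 in all of them, and it was not called when chow water replicate 1, high-fat water replicate 5 or the libraries with transcripts of other organs were left out.

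Of 28 other T cell genes, 3 rose and 0 fell in high-fat water (median log2 0.03), where 8.06% of all tested genes rose, so the count lies near the background. Il7r, the interleukin-7 receptor, had 44.6, 22.5, 20.8, 14.1 and 13.5 CPM in high-fat water against 7.43, 4.15, 4.81, 2.80 and 2.35 CPM in chow water, with no overlap (log2 2.43, SE 0.48, adjusted p = 0.00365). Cd247, the zeta chain that signals beside CD3, averaged 4.34 ± 0.98 CPM in high-fat water and 1.32 ± 0.41 CPM in chow water (log2 1.72, SE 0.25, adjusted p = 0.000489). Trac, the constant part of the T cell receptor alpha chain, averaged 3.72 ± 0.92 CPM in high-fat water and 1.59 ± 0.90 CPM in chow water (log2 1.23, SE 0.34, adjusted p = 0.0209). Trac was not called when chow water replicate 2 or either of high-fat water replicates 1 and 2 was left out (log2 1.10 to 1.16) or when only the groups compared were fitted (log2 1.22, adjusted p = 0.0573). In Cd247, 60.3% of the exonic bases overlap Gm16565 and Pou2f1, and their reads cannot be told apart. With all 20 libraries, chains of the same receptor thus went in opposite directions, Cd3e lower and Cd247 and Trac higher. The Cd3e call ended without chow water replicate 1 (log2 -1.13, adjusted p = 0.0542) and without the libraries with organ transcripts. Cd3g, the third CD3 chain, was not called (log2 -1.10, SE 0.50, adjusted p = 0.141) and is named after its values were seen.

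Where 7.11% of all tested genes fell and 8.06% rose, 1 of 17 other NK and cytotoxic genes tested fell and 0 rose. It was Cst7, an inhibitor of granule proteases (log2 -1.06, SE 0.35, adjusted p = 0.0471), which was not called when chow water replicate 1, 2, 3 or 4 or high-fat water replicate 1, 2 or 5 was left out (log2 -1.11 to -0.92). Of 18 other B cell genes, 4 rose and 1 fell (median log2 0.53), beside the same 8.06% and 7.11% of all tested genes. Blnk, the linker of B cell receptor signalling, averaged 23 ± 12.4 CPM in high-fat water and 8.05 ± 2.29 CPM in chow water (log2 1.51, SE 0.36, adjusted p = 0.0101). Cd72, a B cell co-receptor, averaged 4.74 ± 1.56 CPM in high-fat water and 1.68 ± 0.96 CPM in chow water (log2 1.50, SE 0.36, adjusted p = 0.0112). Btk, the kinase downstream of Cd79a and Cd79b, rose by 1.16 (SE 0.34, adjusted p = 0.0305), and was not called when chow water replicate 1, 2 or 4 or high-fat water replicate 1 or 2 was left out (0.92 to 1.15). In Cd72, 41.6% of the exonic bases overlap Tesk1 on the opposite strand.

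Ighd, the heavy chain of immunoglobulin D, was higher (log2 1.11, adjusted p = 0.0428) and Vpreb3, also of the B cell list, was lower (log2 -1.56, adjusted p = 0.0448), both named after their values were seen. Ighd was not called when chow water replicate 1, 2 or 4 or any of high-fat water replicates 1, 2 and 3 was left out (log2 0.90 to 1.15). Vpreb3 was not called when chow water replicate 1 or 2 or any of high-fat water replicates 1, 2, 3 and 5 was left out (log2 -1.65 to -1.03, the last without chow water replicate 1). With each library left out in turn, 2 to 7 of the 18 B cell genes were called. Blnk, Btk and Cd72 are also used by myeloid cells. Of 15 macrophage genes, 3 rose and 2 fell, where 8.06% of all tested genes rose and 7.11% fell. The list summed to 1486 to 3443 CPM in high-fat water and 739 to 2292 CPM in chow water. Adgre1, the macrophage marker F4/80, had 190.5, 118, 102, 80.5 and 66.4 CPM in high-fat water and 13, 31, 65, 32.3 and 54.4 CPM in chow water (log2 1.51, SE 0.41, adjusted p = 0.0206; leaving out either chow water replicate 2 or replicate 1 of high-fat water ended the call). Mertk, a receptor for the uptake of dying cells (log2 -0.77, adjusted p = 0.0091), and Cd14, a co-receptor for bacterial lipopolysaccharide (log2 -1.26, adjusted p = 0.0135), fell. Cd68 (log2 1.44, adjusted p = 0.0477) and Fcgr1 (log2 1.16, adjusted p = 0.0434) rose and are named after their values were seen. Of the 10 libraries left out in turn, Cd68 stayed called without high-fat water 5 and chow water 3 and 5, and Fcgr1 without high-fat water 3 and 5 and chow water 5. In high-fat water, Il7r and Adgre1 fell in the same order, from replicate 1 down to replicate 5. In chow water, replicate 1 had the highest Il7r and the lowest Adgre1. The part of macrophages in the changes of Blnk, Btk, Cd72 and Il7r was not tested.

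Of 8 plasma cell genes, 2 fell and 0 rose (median log2 -3.01), where 7.11% of all tested genes fell and 8.06% rose. Igha, the heavy chain of immunoglobulin A, had 0.569 to 16.4 CPM in high-fat water against 2095 CPM in chow water replicate 1 and 4.49 to 11.9 CPM in the other chow water libraries. Its log2 change of -5.69 (adjusted p = 0.0288) turned to 0.30 without chow water replicate 1, the library with pancreas and intestine transcripts. Ighg2c, a heavy chain of immunoglobulin G, had 0.225 to 0.496 CPM in high-fat water and 0.264 to 8.24 CPM in chow water (log2 -3.31, SE 0.85, adjusted p = 0.0158), and it was not called by limma voom (log2 -2.61, adjusted p = 0.113).

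Of the called genes outside the 9 markers named for high-fat water against chow water, Il7r, Cd247, Blnk, Cd72, Cd14 and Ubd (a gene of the lymph node list) stayed called under all 20 alternatives. Without the 9 libraries with organ or muscle transcripts, Adgre1, Btk, Ccr7, Cd68, Cst7, Fcgr1, Ighd, Ighg2c, Mertk and Vpreb3 were not called (adjusted p from 0.058 to 0.211). With no filter on low counts, Btk, Ccr7, Cd68, Cst7, Fcgr1, Ighd and Vpreb3 were not called (0.0505 to 0.0913). When only the groups compared were fitted, Btk, Cd68, Cst7, Igha, Ighd and Vpreb3 were not called (0.0504 to 0.101). Cd68 was not called with RLE scaling (0.0508), and Fcgr1, Igha and Vpreb3 were not called by limma voom (0.0654 to 0.561). Cst7, Fcgr1 and Ighd were not called without the 3 libraries with organ transcripts (0.0659 to 0.0738). Without chow water replicates 1 and 2, Adgre1, Btk, Ccr7, Cd68, Cst7, Fcgr1, Ighd, Mertk and Vpreb3 were not called (0.0508 to 0.256). With the replicate block, Cd68, Cst7, Fcgr1, Igha and Vpreb3 were not called (0.0599 to 0.424).

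Between high-fat tea and high-fat water mice, the drink differed on the same diet. None of the 9 markers was called by edgeR, 1 had an unadjusted p below 0.05 and DESeq2 called 1, Cd4 in both cases. Of all genes tested 4.36% were called, 2.06% higher and 2.30% lower, and libraries of the groups did not overlap for 0 of 9 markers and 5.55% of all genes. The median log2 change was -0.23 over the 9 markers and 0.02 over all genes.

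Cd4 had 2.14, 23.4, 2.62, 2.33 and 0.772 CPM in high-fat tea and 1.19, 0.95, 3.27, 1.49 and 1.21 CPM in high-fat water. The groups overlapped, and high-fat tea replicate 2, with 2321 Cd4 reads, stood apart from the other 19 libraries of the study, which reached at most 7.53 CPM. The log2 change was 1.94 (SE 0.74, adjusted p = 0.123) and 0.28 without high-fat tea replicate 2 (adjusted p = 0.813). DESeq2 called it (log2 1.97, adjusted p = 0.0373). In the same library Cd3e was at 1.42 CPM, Cd3d at 0.714 CPM, Cd8a at 0.734 CPM and Foxp3 at 0.503 CPM, which was the highest Foxp3 of all libraries. The other B cell genes summed to 643 CPM there, the highest of all libraries. Ighm, the heavy chain of immunoglobulin M, made up 90.8% of that sum and is named after its values were seen. Plasma cell genes summed to 346.5 CPM there, the highest outside chow water replicate 1.

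Nkg7 had 0.531, 1.21, 0.899, 0.972 and 0.672 CPM in high-fat tea and 1.41, 1.60, 2.04, 1.29 and 0.712 CPM in high-fat water (log2 -0.71, SE 0.37, adjusted p = 0.247). Cd3e had 0.349, 1.42, 1.01, 1.94 and 0.573 CPM in high-fat tea, on both sides of the high-fat water libraries (log2 0.48, SE 0.41, adjusted p = 0.525). Cd3d averaged 0.676 ± 0.261 CPM in high-fat tea and 0.67 ± 0.173 CPM in high-fat water (log2 0.01, SE 0.36, adjusted p = 0.991). The 3 B cell markers had log2 changes of -0.47 to -0.23, with adjusted p from 0.653 to 0.83.

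Il7r and Trac, which were higher in high-fat water than in chow water, were lower with tea. The 5 T cell markers summed to 2.52 to 5.91 CPM in high-fat water and 2.83 to 26.7 CPM in high-fat tea. Which cells held the Il7r and Trac reads was not tested. Il7r averaged 4.36 ± 3.93 CPM in high-fat tea and 23.1 ± 12.7 CPM in high-fat water, with no overlap (log2 -2.40, SE 0.48, adjusted p = 0.0129). In high-fat tea, replicate 5 had 11.4 CPM of Il7r and the other 4 libraries 2.22 to 2.93 CPM, and without replicate 5 the change was -3.15. The same library was the highest of its group for Ubd (17 CPM), Adgre1 (80.8 CPM) and the adipocyte hormone Lep (942.7 CPM). Trac averaged 1.02 ± 0.37 CPM in high-fat tea and 3.72 ± 0.92 CPM in high-fat water, with no overlap (log2 -1.86, SE 0.34, adjusted p = 0.00915). They were 2 of 28 other T cell genes to fall, and 0 rose, where 2.30% of all tested genes fell and 2.06% rose. Both calls ended when only the groups compared were fitted (adjusted p = 0.054 for Trac, 0.0756 for Il7r) and without the 9 libraries with organ or muscle transcripts (0.112 and 0.179). Cd247 was not called (log2 -0.81, SE 0.24, adjusted p = 0.0619). The comparisons with chow water and with high-fat tea share the high-fat water libraries. Beside the same shares of all tested genes, 1 of 18 other B cell genes fell and 0 rose. It was Blnk (log2 -1.43, SE 0.36, adjusted p = 0.0325), which was not called when high-fat tea replicate 1, 2 or 3 or high-fat water replicate 1 or 2 was left out (-1.42 to -1.06), with no filter (adjusted p = 0.0563), when only the groups compared were fitted (0.109), with the replicate block (0.0729) or without the 9 libraries (0.172). No NK, plasma cell or macrophage gene was called by edgeR, while DESeq2 called 0, 1 and 2 of them.

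**Figure D3:**
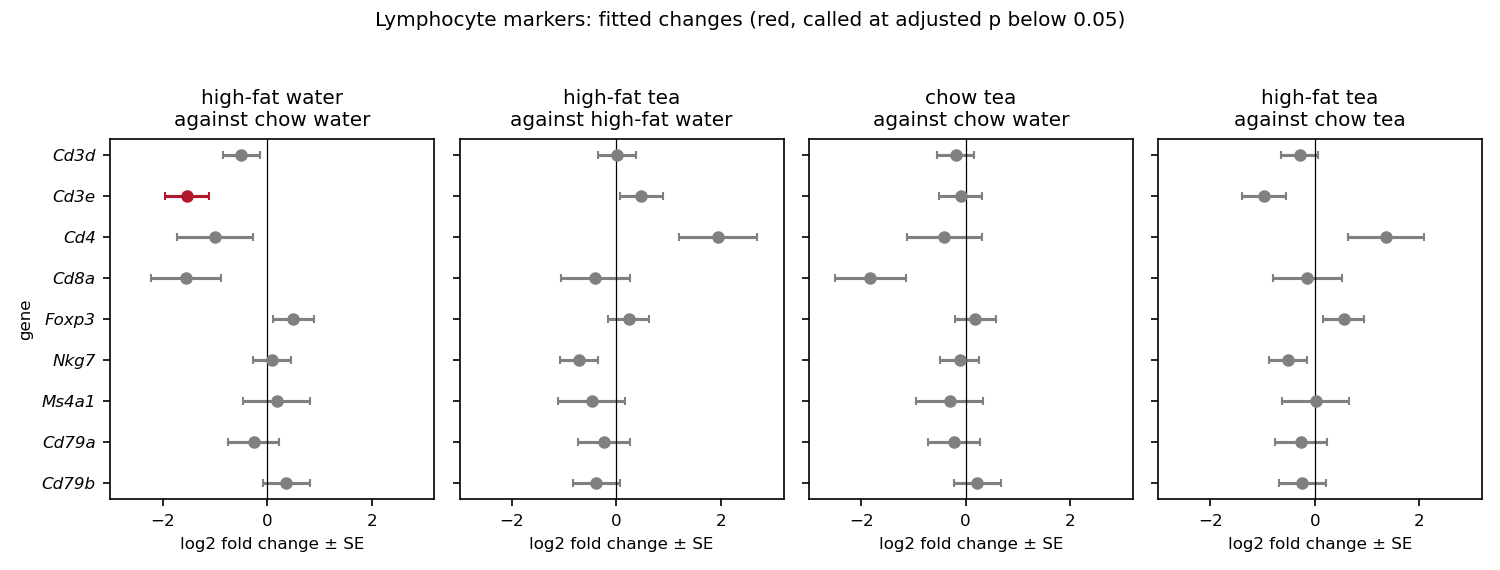
Log2 fold change with its SE on the horizontal axis for the 9 markers, in 4 comparisons. The change of Cd3e in high-fat water against chow water (log2 -1.54) is the only value called, and Cd4 and Cd8a have the widest errors.

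Between chow tea and chow water mice, none of the 9 markers was called by edgeR or DESeq2, 1 had an unadjusted p below 0.05, and 0.0235% of all genes were called by edgeR. Libraries did not overlap for 0 of 9 markers and for 2.56% of all genes. Cd8a had 0.279, 0.659, 1.46, 0.486 and 0.565 CPM in chow tea against 0.326 to 7.69 CPM in chow water (log2 -1.82, SE 0.68, adjusted p = 0.281), a change of -0.76 when chow water replicate 1 was left out. Cd3e had 1.99, 2.28, 2.10, 1.77 and 2.26 CPM in chow tea, with an SD of 0.21, against 1.39 in chow water and 0.217 in high-fat water, and its log2 change was -0.09 (SE 0.41, adjusted p = 0.969). Cd79a averaged 2.57 ± 1.19 CPM in chow tea and 3 ± 2.04 CPM in chow water (log2 -0.22, adjusted p = 0.916).

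Between high-fat tea and chow tea mice, 0 of 9 markers were called by edgeR or DESeq2 and 1 had an unadjusted p below 0.05, with 0.178% of all genes called. Libraries did not overlap for 0 of 9 markers and 2.77% of all genes. Cd3e averaged 1.06 ± 0.64 CPM in high-fat tea and 2.08 ± 0.21 CPM in chow tea (log2 -0.97, SE 0.42, adjusted p = 0.259). Of the 5 high-fat tea libraries, 4 lay below every chow tea library, and replicate 4 at 1.94 CPM lay within their range. Cd4 changed by log2 1.36 (SE 0.73, adjusted p = 0.365), and by -0.31 without high-fat tea replicate 2. Cd79a had 2.39, 3.32, 1.07, 2.53 and 1.33 CPM in high-fat tea and 0.959, 4.28, 2.76, 2.59 and 2.25 CPM in chow tea (log2 -0.27, SE 0.50, adjusted p = 0.841).

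The interaction, the change with tea on the high-fat diet less that on chow, was called by edgeR for 0 of 9 markers and for 0.0657% of all genes. It had an unadjusted p below 0.05 for 1 marker, and DESeq2 called 0. That marker was Cd4 (log2 2.35, SE 1.03, adjusted p = 0.286), at 0.68 without high-fat tea replicate 2. For Cd3e it was 0.57 (SE 0.58, adjusted p = 0.7). For Trac and Il7r it was -1.26 (adjusted p = 0.205) and -1.78 (adjusted p = 0.196), so a difference of the tea change between diets did not pass the test for either. No gene of the other T cell, NK, B cell, plasma cell, lymph node or macrophage lists was called by edgeR in these last 3 comparisons.

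Lymph node carry-over was examined through 8 genes taken as marks of lymph node structure, library by library. Glycam1, a ligand of L-selectin made by high endothelial venules, was at 0 in 14 of 20 libraries and reached at most 0.261 CPM, with 8 reads in chow water replicate 1. It was at 0 in all 5 high-fat water libraries. Madcam1, an addressin, ran from 0.019 CPM in high-fat water replicate 4 to 1.27 CPM in chow water replicate 1. Chst4, a sulfotransferase of high endothelial venules, ran from 0.503 CPM in high-fat tea replicate 1 to 10.6 CPM in chow tea replicate 2. It was at 10.0, 10.6 and 10.2 CPM in chow tea replicates 1 to 3, which had no Glycam1 read. In chow water replicate 1, with the most Glycam1, it was at 4.95 CPM. The part of cells outside lymph nodes in the Chst4 level was not tested.

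Ccl21a, the chemokine of the T cell zone, ran from 0.026 CPM in chow water replicate 3 to 22.5 CPM in chow water replicate 2, with a median of 7.28 CPM, and has near-identical copies that can exchange reads with it. Ccl19, which acts on the same receptor, ran from 0.061 CPM in high-fat water replicate 3 to 1.51 CPM in chow water replicate 2. Cr2 and Fcer2a, which are high on follicular B cells and follicular dendritic cells, reached at most 1.45 and 1.27 CPM. Chow water replicate 3, which had the highest Ms4a1 (4.52 CPM), had the lowest Ccl21a and no Glycam1 read, and it had the highest Cxcl13 (70.5 CPM) and Chst4 (8.46 CPM) in chow water. Chow water replicate 1, with the highest Cd3e, Cd8a and Cd79a, had the highest Glycam1 and Madcam1 and a Ccl21a level of 16.7 CPM, below that of chow water replicate 2. Chow water replicate 1 is also the library with pancreas and intestine transcripts. The part of those tissues in its marker and Madcam1 levels was not tested.

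Cxcl13, the B cell follicle chemokine, which is also made by mesothelial and stromal cells of fat-associated clusters, was called. It had 11, 3.16, 4.82, 1.16 and 2.46 CPM in high-fat water and 14, 26.3, 70.5, 27 and 38.7 CPM in chow water, with no overlap (log2 -2.96, SE 0.70, adjusted p = 0.0102). In high-fat tea it had 11.8, 63.1, 26.2, 4.77 and 6.85 CPM (log2 2.32 against high-fat water, SE 0.69, adjusted p = 0.0603). Its highest high-fat tea value was in replicate 2, the library with the high Cd4. Of 6 mesothelial genes, 2 fell and 0 rose in high-fat water against chow water (median log2 -0.64), where 7.11% of all tested genes fell and 8.06% rose. The list summed to 72.2 to 304.8 CPM in high-fat tea, 33.9 to 137.6 CPM in high-fat water and 83.5 to 376.7 CPM in chow water, and high-fat tea replicate 2 was again the highest of its group. The highest sum in chow water was in replicate 1, the library with pancreas and intestine transcripts. Upk3b, a gene of the list, made up 4.90% of the sum there and 16.5% to 45.3% in the other chow water libraries. In high-fat tea, Upk3b made up 18.9% of 304.8 CPM in replicate 2 and 40.7% of 195.5 CPM in replicate 3. Replicate 2 was thus not the highest of its group for Upk3b alone. The mesothelial list was not tested without chow water replicate 1. The part of mesothelial cells in the change of Cxcl13 was not tested. Of 13 lymph node structure genes tested, 2 rose and 1, Cxcl13, fell in high-fat water against chow water, beside the same shares of all tested genes. Ccr7, the receptor for Ccl19 and Ccl21a, averaged 1.88 ± 0.74 CPM in high-fat water and 0.831 ± 0.223 CPM in chow water (log2 1.17, SE 0.33, adjusted p = 0.0223; leaving out either chow water replicate 4 or replicate 1 of high-fat water ended the call). Ubd, a ubiquitin-like protein induced by inflammatory cytokines, had 186, 60.8, 31.5, 41.5 and 24.2 CPM in high-fat water and 0.977, 1.57, 3.49, 2.47 and 2.88 CPM in chow water (log2 4.91, SE 0.63, adjusted p = 0.000227). Ubd was also the 1 of 13 to fall with tea on the high-fat diet (log2 -3.27, SE 0.58, adjusted p = 0.00779; 0.0699 when only the groups compared were fitted and 0.122 without the 9 libraries). Leaving out high-fat tea replicate 5 gave -3.88 for tea, and leaving out replicate 1 of high-fat water gave -2.47 for tea and 4.11 for diet. The diet change of Cxcl13 was -3.61 without high-fat water replicate 1. Without the 9 libraries its call ended (log2 -2.71, adjusted p = 0.0862).

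**Figure D4:**
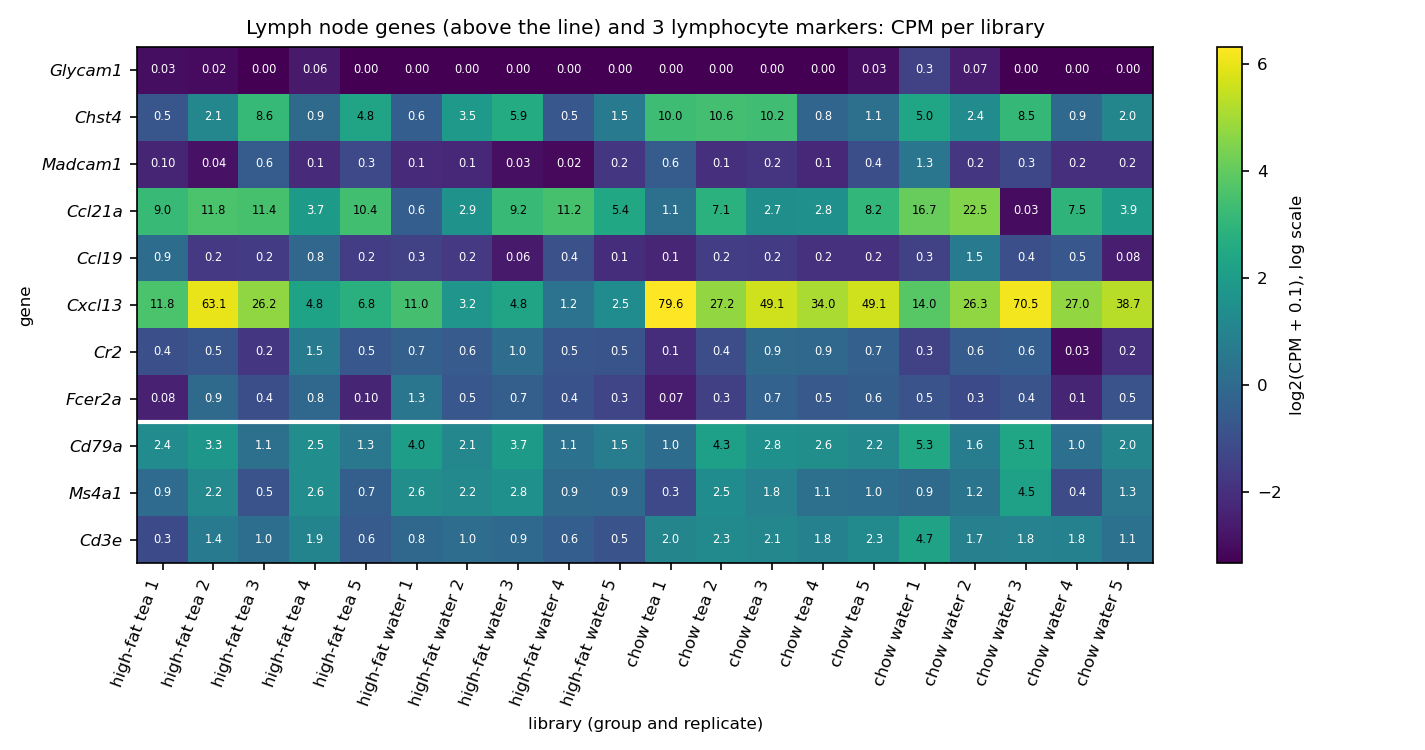
CPM of 8 lymph node genes (above the line) and of Cd79a, Ms4a1 and Cd3e in each library, printed in the cells and coloured on a log2 scale with 0.1 added. Glycam1 is at or near 0 throughout, and Cxcl13 is low in the high-fat water libraries, at 1.16 to 11 CPM.

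Over the 20 libraries, after taking each library's deviation from its group mean of log2 CPM, 0 of 63 pairs of a lymph node gene and a marker passed an adjusted p of 0.05 by Pearson's r (permutation within groups, two-sided). The closest was Cr2 with Ms4a1 (r = 0.76, permutation p = 0.00108, adjusted p = 0.068; rho = 0.65, permutation p = 0.00556, adjusted p = 0.209), at r = 0.61 without the 2 libraries farthest from the median of Cr2. Both are genes of B cells. Without the 3 libraries with organ transcripts, that r was 0.74, and r of some other pairs moved in either direction. It went from 0.01 to 0.59 for Cxcl13 with Cd3e and from 0.41 to 0.64 for Ccl19 with Cd8a. For Madcam1 it went from -0.18 to -0.53 with Cd4 and from -0.09 to -0.54 with Cd79a. These values without the 3 libraries were not given a p-value. Without chow water replicates 1 and 2, the libraries with the most Glycam1, the diet change of Cd3e was -1.10 (adjusted p = 0.116). The part of lymph node tissue in the markers' levels was not tested beyond these values.

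The same deviations were compared among the markers, in 36 pairs. The 3 B cell markers varied together. Cd79a and Cd79b had r = 0.91 (permutation p = 2e-05, adjusted p = 0.00036) and rho = 0.91 (permutation p = 1e-05, the smallest that the permutations can give, adjusted p = 0.00036), with r = 0.89 without the 2 farthest libraries. Ms4a1 and Cd79b had r = 0.88 and rho = 0.85. Among the T and NK markers r ran from 0.19 to 0.77 over 15 pairs, of which 7 passed by r and 5 by rho. Nkg7 followed Cd3d most closely (r = 0.77, permutation p = 0.00013, adjusted p = 0.00117; rho = 0.75, permutation p = 0.00073, adjusted p = 0.00657; r = 0.74 without the 2 farthest libraries). Cd3d and Cd3e had r = 0.69 (permutation p = 0.00052, adjusted p = 0.00374) and rho = 0.67 (permutation p = 0.00206, adjusted p = 0.0148), with r = 0.72 without the 2 farthest. Between B cell and T or NK markers r ran from 0.02 to 0.42 over 18 pairs, and 0 passed by r or by rho. The libraries share their tissue piece and depth across genes, and without the 3 libraries with organ transcripts r was 0.93 for Cd79a with Cd79b and 0.65 for Cd3d with Cd3e. The labels give no batch.

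**Figure D5:**
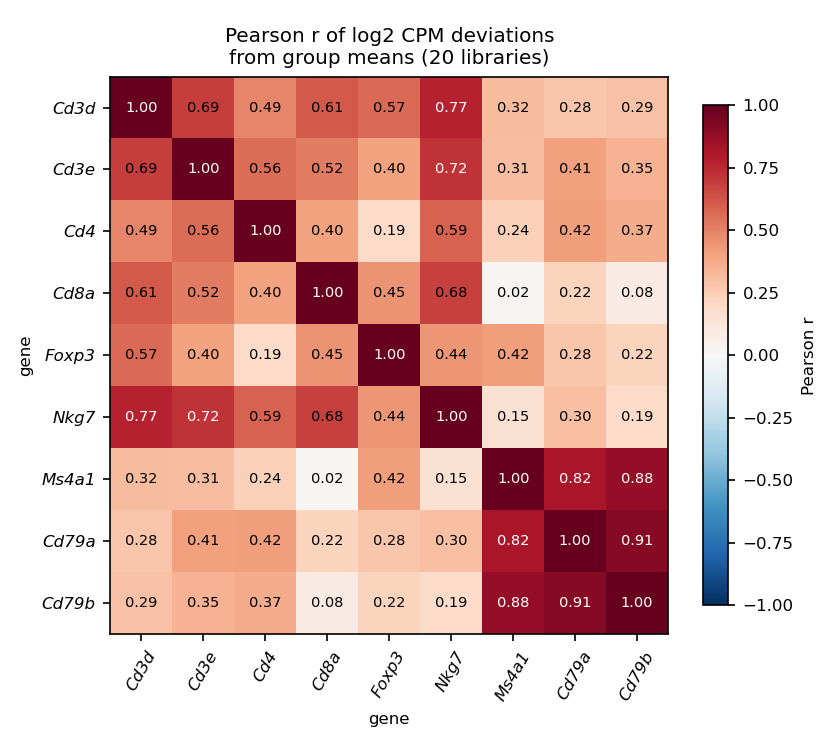
Pearson's r between markers over 20 libraries, from deviations of log2 CPM from group means; both axes list the genes. The 3 B cell markers form a block at 0.82 to 0.91, and their values with the T and NK markers are 0.02 to 0.42.

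Among 13107 other tested genes with a mean log2 CPM of at least 0, those most alike in these deviations were B cell genes for the B cell markers. Cd79a was closest to Spib (r = 0.94) and Pou2af1 (r = 0.90), both B cell transcription regulators, and to H2-DMb2 (r = 0.84). Ms4a1 was close to Pax5, the B cell identity factor (r = 0.91), and H2-DMb2 (r = 0.85). Cd79b was close to Pax5 (r = 0.88) and Pou2af1 (r = 0.82). Nkg7 was closest to Lat (r = 0.88) and Lck (r = 0.87), which signal at the T cell receptor, and to the chemokine Ccl5 (r = 0.83). Cd3d was closest to Lat (r = 0.85), Ms4a4b (r = 0.85) and Sfrp1 (r = 0.82).

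The remaining T cell markers had neighbours of other kinds. Cd3e was closest to Ssbp1 (r = 0.91), a mitochondrial DNA-binding protein, and to Lsr and Stxbp2 (r = 0.87 each). Without the 3 libraries with organ transcripts, r was 0.81 for Ssbp1, 0.87 for Lsr and 0.75 for Stxbp2. Cd8a was closest to Igsf9b (r = 0.86), Ramp1 and Nek3 (r = 0.84 each), which fell to r = 0.78, 0.62 and 0.64 without the 3 libraries with organ transcripts. Cd4 was closest to the antibody gene Igkv1-110 (r = 0.88), Il21r (r = 0.81) and Sh2d2a (r = 0.80). Foxp3, with 4 to 50 reads per library, was closest to Camkmt (r = 0.73), Zbed5-ps (r = 0.72) and Zcchc4 (r = 0.72). For each marker these genes are the highest of 13107 values of r over 20 libraries, and no test was run on them. Selection from so many genes can give a high r between unrelated genes.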

How the data were processed

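Counts per gene were deposited by the authors, 1 table per library, as whole-number read counts that are not normalized. Per the file headers, featureCounts 2.0.6 counted exons of GENCODE vM32 on GRCm39 and summed them by gene name, with no strand option and without counting pairs as 1 fragment. Among counts of 1 to 20, 68.1% to 72.2% were even, so most fragments count as 2 reads. The submitters' processing notes name fastp 0.23.2, HISAT2 2.2.1 and featureCounts 2.0.6, with mm10 as the build. The tables hold 0 entries without a gene.

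Genes were filtered with filterByExpr in edgeR 4.0.16 (minimum count 10, minimum total 15), scaled by TMM and tested with the quasi-likelihood F test over group means of all 20 libraries (R 4.3.3). Adjustment was Benjamini-Hochberg over 21306 genes, with calls at an adjusted p below 0.05. Each library is 1 animal, so the tests rest on the spread between animals, sampling and library preparation included. Within groups, 40 pairs of libraries all differed by more than sampling noise (lowest chi-square per gene 61.6). Correlations used 100000 permutations within groups. The steps were tested on simulated data.

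The members and lists were chosen with earlier results of these data known. Named genes are the 9 markers, up to 3 called genes with the lowest p per list and comparison, the lymph node genes, and the 3 most alike genes per marker, of which 1 gene is not reported here. Alternatives were RLE scaling, no filter, DESeq2 1.42.0, limma voom 3.58.1, only the groups compared, a replicate block, halved counts, each library left out, and the libraries with organ transcripts left out. Leaving out chow water replicates 1 and 2 was added after seeing the data. Depth leaves the low markers, Foxp3 above all, with few reads.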

Additional observations from a re-analysis of the deposited data

Results flagged for a closer look

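Among the 36 groups of 5 values that the 9 markers form, 5 had a highest library whose gap to the next took up more than 0.71 of the group's range (Dixon's criterion). For normally distributed values, chance meets it in about 1 group in 20. Here the values are CPM without logarithms and the markers share libraries, so that rate need not hold. Cd4 reached 23.4 CPM in high-fat tea replicate 2, with 2.62 CPM in the next library, and 3.27 CPM in high-fat water replicate 3, with 1.49 CPM in the next. Cd3e reached 4.66 CPM in chow water replicate 1, with 1.82 CPM in the next. Cd8a reached 7.69 CPM in chow water replicate 1, with 2.38 CPM in the next. Ms4a1 reached 4.52 CPM in chow water replicate 3, with 1.30 CPM in the next.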

How the results depend on the processing

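The count of markers called in high-fat water against chow water was 1, and 0 without the 3 libraries with organ transcripts, 0 without the 9 libraries with organ or muscle transcripts and 0 without chow water replicates 1 and 2. With each library left out in turn it ran from 0 to 1. In high-fat tea against high-fat water the count was 0, and 1 under DESeq2. The change of Cd3e was -1.02 (adjusted p = 0.0532) without the 3 libraries and -0.81 (adjusted p = 0.241) without the 9. The causes were not tested. Over 963 values of the markers under alternatives, 923 stayed on the same side of the threshold and, if uncalled, moved by less than 1 SE whatever their sign, 5 lost and 1 gained a call, 0 called values reversed and 34 uncalled values moved by at least 1 SE. The sign differed for 92 uncalled values, in 25 of the 45 combinations of marker and comparison. Over all genes, 3232 were called for diet in water (1856 to 4546 over the alternatives), 928 for tea on high-fat diet (13 to 2431), 5 for tea on chow (0 to 261), 38 for diet with tea (5 to 921) and 14 for the interaction (0 to 691), the highest mostly under DESeq2. Over 30 pairs of libraries from different groups with the same replicate number, correlations ran from -0.27 to 0.475 (median 0.014), 9 above 0.1. With different numbers they ran from -0.484 to 0.501 (median -0.026). Such values cannot show whether mice of the same number were paired or handled together. With the replicate block, the change of Cd3e was -1.51 (adjusted p = 0.0372) and that of Cd4 with tea on the high-fat diet was 1.10, and no marker's call changed. Igha in high-fat water against chow water was -2.42 with the block (adjusted p = 0.424), 0.42 without the 3 libraries, 0.90 without the 9 and 0.76 without chow water replicates 1 and 2, and ran from -6.10 to 0.30 with single libraries left out. Depth limits Foxp3, with 4 to 50 reads per library.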
